A study of Oryza sativa Japonica Group with 6 samples.

Results

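Small RNA libraries of rice anthers at the single microspore stage (SCP-2x) were compared with those at meiosis (MA-2x) in the diploid line Taichung65-2x. All 402 miRNAs of the diploid table entered, of 486 in the whole series, and 2 of its 6 libraries were compared. The remaining libraries come from diploid anthers at pre-meiotic interphase (PMA-2x) and from Taichung65-4x, an autotetraploid raised from the diploid by colchicine, at the same 3 stages. SCP-2x anthers were 1.40 to 1.55 mm long, from florets of 5.50 to 6.00 mm, and MA-2x anthers were 1.00 to 1.35 mm long, from florets of 3.80 to 4.30 mm. The plants were grown in a field. Each stage has 1 library made from whole anthers, so there is no replicate check, no p-value is given, and each difference is one between these libraries. Whole anthers mix meiocytes or microspores with tapetum and the outer wall layers, and fewer cells of a type cannot be told apart from less RNA per cell.

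Plant miRNAs are cut from hairpin precursors, usually by DICER-LIKE1 as 21 nt or 22 nt products, whereas DICER-LIKE3 makes the rarer products of 24 nt. They are loaded into ARGONAUTE proteins and pair with target mRNAs along most of their length. In grass anthers, miR2118 and miR2275 are known for a further role: they cut long non-coding transcripts and so trigger the phased small RNAs (phasiRNAs) of the pre-meiotic and meiotic anther. Other conserved families restrain transcription factors of organ identity, auxin response and growth.

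The sequences below are those the results turn on, written 5′ to 3′ as deposited, with bases 2 to 8 (the seed) in capitals. In the names, L and R give bases gained or missing at the left or right end, ss a substitution, p5 or p3 an arm that was not listed for a known hairpin, and PC a predicted hairpin. The first are higher at SCP-2x, and both miR172 members share a seed.
osa-miR172b: gGAATCTTgatgatgctgcat
osa-miR172a: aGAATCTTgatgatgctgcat
osa-miR535-5p: tGACAACGagagagagcacgc
osa-miR164d: tGGAGAAGcagggcacgtgct
osa-miR167d-5p_R-1: tGAAGCTGccagcatgatct
osa-miR396e-5p: tCCACAGGctttcttgaactg
osa-miR1432-5p_R+1: aTCAGGAGagatgacaccgaca
The next come from both arms of miR166 and miR171 hairpins, and show that the arms carry unrelated seeds.
osa-miR166a-3p: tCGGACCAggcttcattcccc
osa-miR166a-5p: gGAATGTTgtctggttcaagg
osa-miR166b-5p: gGAATGTTgtctggctcgggg
osa-MIR171i-p3: tTGAGCCGcgtcaatatctct
osa-miR171i-5p: aGGTATTGgcgtgcctcaatc
osa-MIR171b-p5: gGATATTGgggcggttcaatc
The last are members of the phasiRNA trigger families miR2118 and miR2275, from either arm, and 4 abundant miRNAs of less studied families that were lower at SCP-2x. Among the tested miR2118 members 2 seeds cover 7.
osa-miR2118d: tTCCTGATgcctcccatgccta
osa-miR2118b: tTCCCGATgcctcccattccta
osa-miR2275c_R-2: aGAATTGGaggaaaacaaact
osa-miR2275a_1ss15AG: tTTGGTTTcctccagtatctca
zma-miR2275c-5p_2ss14CA15TC: aGGATTAGagggaactgaacc
osa-miR5511: cATATCCCagctgtttcggcc
osa-miR5516a: cTCATTGCttcggtaggctgg
osa-MIR5798-p3: cGAAAGTTgctaggcaccctg
osa-miR5820: tGGCAGAGattgatcgaggaa

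Values are normalized reads as deposited, in which 1 read was worth 0.888 at SCP-2x and 0.944 at MA-2x. The 402 values summed to 77448 at SCP-2x and 106731 at MA-2x, which stand for about 87173 and 113099 reads. The 5 most abundant miRNAs held 38.04% of the sum at SCP-2x and 26.3% at MA-2x. At SCP-2x 299 miRNAs exceeded 10, against 319 at MA-2x. Both libraries passed 10 for 263 miRNAs, SCP-2x alone of these stages for 36 and MA-2x alone for 56. The other 47 were listed through PMA-2x and were not tested, since a miRNA was tested where the larger of its 2 values exceeded 10.

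Of the 355 tested miRNAs, 161 (45.4%) differed by more than 2-fold and were called, 29 (8.17%) of them higher and 132 (37.2%) lower at SCP-2x. By value alone 108 were higher and 247 lower, with a median log2 ratio of -0.67. This balance rests on the scaling of the libraries. Setting the table sums equal raised every log2 ratio by 0.46, setting the median ratio to 1 raised it by 0.67, and dividing recovered reads by the clean reads of each library raised it by 0.87. With equal sums 120 miRNAs were called (33.8%), 54 higher (15.2%) and 66 lower (18.6%). With the median ratio 117 were called (33%), 76 higher (21.4%) and 41 lower (11.5%), and with clean reads 123 (34.6%), 97 higher (27.3%) and 26 lower (7.32%). Since each other scaling raised every ratio, no higher call could be lost, and the calls made under all 4 scalings are the 29 higher ones as deposited and the 26 lower ones with clean reads, 15.5% of the tested. A log2 ratio below 0 by less than 0.87 therefore lies above 0 with clean-read scaling, and family values are given beside the median of all miRNAs, from which they keep their distance under any scaling.

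**Figure D1:**
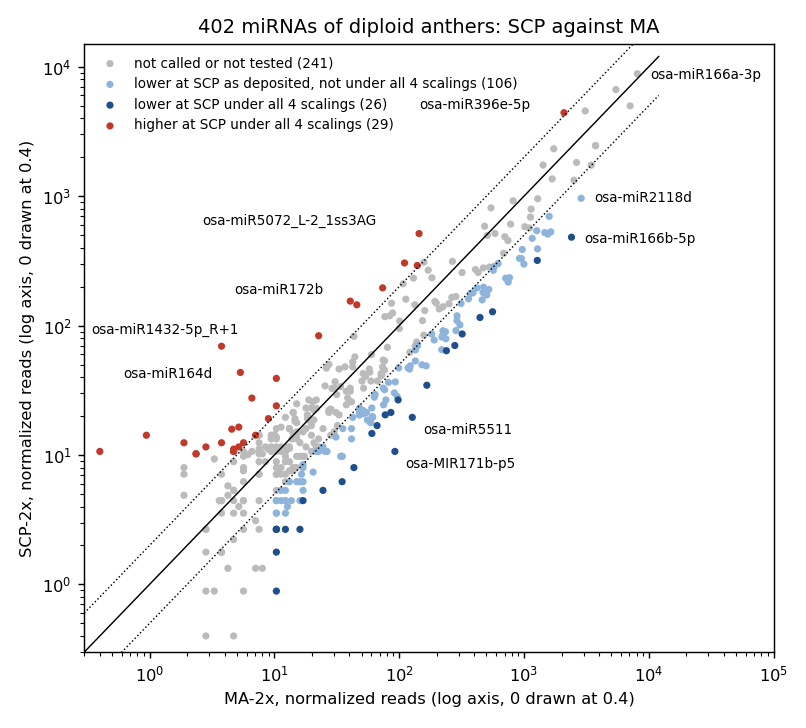
Normalized reads of the 402 miRNAs at SCP-2x (vertical log axis) against MA-2x (horizontal log axis), with a value of 0 drawn at 0.4. The solid line marks equal values and the dotted lines 2-fold. Most points lie below the solid line, and the 26 dark blue points are lower under all 4 scalings.

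**Figure D2:**
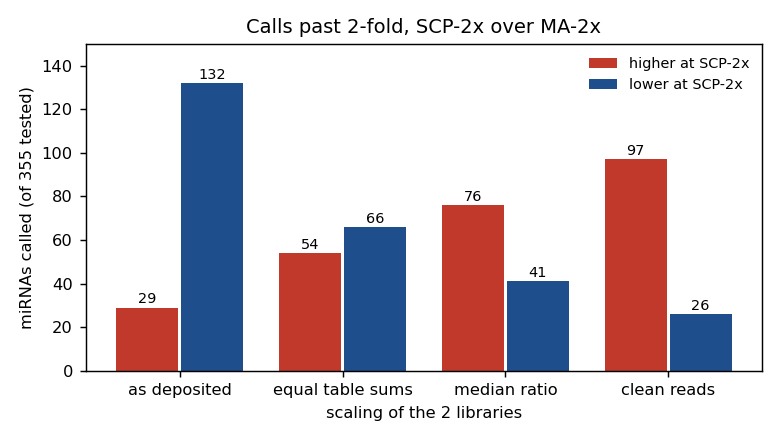
Number of the 355 tested miRNAs called higher (red) or lower (blue) at SCP-2x under each scaling of the 2 libraries. Lower calls number 132 as deposited and 26 with clean reads, and higher calls 29 and 97.

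Of the called miRNAs, 17 higher and 92 lower ones have values that are whole reads in both libraries, so that a 95% exact binomial counting interval of the fold could be given. It excluded 1 for 14 of the higher and 80 of the lower ones. A fold without an interval below belongs to a miRNA whose values are not whole reads in both libraries. Intervals cover counting error only. Many higher calls rest on few reads: 19 of the 29 had 10 or less at MA-2x, and 9 reached 50 at SCP-2x. Of the 132 lower calls, 35 had 10 or less at SCP-2x, and 82 reached 50 at MA-2x.

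miR172 limits AP2-like factors, which act in floral organ identity, and 2 of its 3 members were called higher, against 8.17% of all tested. osa-miR172b stood at 155 in SCP-2x and 40.6 in MA-2x, 3.81-fold higher (2.71 to 5.45), and osa-miR172a at 145 and 45.8, 3.16-fold higher. The third member, osa-miR172d-5p_R+1 from the other arm, was not called at 82.6 and 43.4. All 3 lay above the median of all miRNAs, and their own median was 1.66 on the log2 scale.

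SPL factors, which promote phase change and panicle branching, are restrained by miR156, miR529 and miR535. Of the 12 members tested 4 were called higher (33.3%) and 1 lower (8.33%), against 8.17% and 37.2% of all tested. Their median log2 ratio of 0.68 lay 1.36 above that of all miRNAs. osa-miR535-5p had 305 in SCP-2x and 110 in MA-2x, 2.76-fold higher (2.23 to 3.43). osa-MIR156d-p3, a 3′ product, had 27.5 and 6.61, 4.17-fold higher (1.80 to 11.2). The other higher calls, bdi-miR156b-5p_R+1 (10.2 and 2.36) and sbi-miR156a_R+1 (11.1 and 4.72), are one sequence listed under the names of 2 grasses. The most abundant member, osa-MIR529a-p5, stood at 1740 and 1423 and was not called. The member called lower, osa-MIR156e-p3, had 26.7 in SCP-2x and 78.3 in MA-2x, and this call was lost with the median ratio and clean reads.

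NAC factors of organ separation are the targets of miR164. Of its 5 members 3 were called higher and none lower, against 8.17% and 37.2% of all tested. The family's median log2 ratio was 1.72. osa-miR164d stood at 43.5 in SCP-2x and 5.35 in MA-2x, 8.13-fold higher. The opposite arm of the same hairpin, osa-MIR164d-p3, stood at 10.7 in SCP-2x and was listed at 0 in MA-2x and in PMA-2x. Set against an assumed floor of 3 reads (2.83 in MA-2x) its fold would be 3.77. The lower end of its counting interval was 2.62, with no upper end because of the 0. osa-miR164a, the most abundant member, was near the limit at 309 and 158 and was not called, and osa-miR164c had 68.0 and 80.5. The family median is thus set by members of low abundance, and over the members reaching 50 it was 0.36.

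miR160 and miR167 restrain auxin response factors, with ARF6 and ARF8 as the targets of miR167 in Arabidopsis. Of 11 members tested, 3 of miR167 were called higher and none lower, against 8.17% and 37.2% of all tested. The list's median log2 ratio of 0.50 lay 1.18 above that of all miRNAs. Of the higher calls, osa-MIR167j-p3 and osa-miR167e-3p are 3′ products, while the targets are named for the family without regard to arm. osa-MIR167j-p3 had 83.5 in SCP-2x and 22.6 in MA-2x, 3.69-fold higher (2.33 to 6.04). osa-miR167d-5p_R-1 had 196 and 73.7, 2.65-fold higher, whereas osa-miR167d-5p_R+1, which is longer at its 3′ end, had 921 and 819 and was not called. The ratio of these isoforms of one miRNA thus differed between the libraries. osa-miR160e-5p had 147 in SCP-2x and 251 in MA-2x, not called. miR390 and miR393, of the tasiRNA and auxin receptor branches, had no call among 3 members, against 45.4% of all tested called. osa-miR390-5p had 314 and 267 (1.17-fold, 1.00 to 1.38).

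osa-miR396e-5p was the most abundant miRNA called higher. Its family restrains growth-regulating factors (GRF), which promote cell proliferation. It stood at 4417 in SCP-2x and 2093 in MA-2x, 2.11-fold higher. As a share of the listed reads it held 5.70% in SCP-2x and 1.96% in MA-2x. osa-miR396c-5p had 586 and 484 and was not called, and the opposite arm osa-miR396c-3p was called lower at 20.4 and 48.1, as deposited alone. Of miR169, which restrains NF-YA factors, both arms of one hairpin were called higher from low levels: osa-miR169b had 15.8 and 4.56, and osa-MIR169b-p3 had 14.2 and 0.944, the value of 1 read in MA-2x (15.1-fold, 2.34 to 632). The abundant osa-MIR169a-p3 had 286 and 576 and was called lower, as deposited alone.

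The highest fold with at least 50 reads belonged to osa-miR1432-5p_R+1, whose predicted targets include calcium-binding EF-hand proteins. It stood at 69.3 in SCP-2x and 3.77 in MA-2x, 18.4-fold higher (6.89 to 69.1), with 5.39 in PMA-2x. In the tetraploid it stood at 215 in SCP-4x and 163.97 in MA-4x and was not called. osa-MIR810b-p5, for which no role is given here, had 291 and 140, 2.09-fold higher (1.71 to 2.55), and the opposite arm of its hairpin had 233 and 130.

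The list of phasiRNA triggers, taken as the miR2118 and miR2275 families with the products of both arms, is the largest of the family lists. Which of these products act as triggers was not tested. Of 42 listed, 38 passed the limit of 10 and were tested: 28 were called lower and none higher, with a median log2 ratio of -1.50, 0.83 below that of all miRNAs. Over all miRNAs 37.2% were called lower, and with clean reads 5 of the list were called lower and 1 higher. By summed values the list had a log2 ratio of -0.73, only 0.06 below the median of all miRNAs. The largest part of the sum is osa-miR2275c_R-2, a 5′ product. For miR2118, 26 of 30 tested members were called lower and none higher, and their median was -1.59. The lower calls numbered 17 with equal sums, 10 with the median ratio and 4 with clean reads, with none higher under any of these scalings. The 12 tested miR2118 products of the annotated arm were all called lower as deposited, with a median of -1.62, and 1 was called lower with clean reads.

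Among miR2118 members osa-miR2118d, the most abundant, stood at 964 in SCP-2x and 2873 in MA-2x, 2.98-fold lower. osa-miR2118b, with the other frequent seed, had 530 and 1641. The 7 members with these 2 seeds were all called lower as deposited, with log2 ratios between -1.78 and -1.46, and since near-identical members share reads they are not independent. Among the 18 products of the opposite arm 14 were called lower, of which osa-MIR2118d-p5 had 34.6 and 167, 4.81-fold lower, osa-MIR2118r-p5 14.7 and 60.5, 4.12-fold lower, and osa-MIR2118l-p5 21.3 and 85.9, 4.03-fold lower (2.55 to 6.61). These and osa-miR2118i, at 64.0 and 239, stayed lower under all 4 scalings. Summed over its members, miR2118 held 5.99% of the listed reads in SCP-2x (5.84 to 6.15, 95% Wilson interval) and 12.9% in MA-2x (12.7 to 13.1).

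For miR2275, 2 of 8 tested members were called lower (25%) and none higher, against 37.2% and 8.17% of all tested. Their median log2 ratio of -0.80 lies above 0 with clean reads. osa-miR2275c_R-2 was the second most abundant miRNA of SCP-2x, at 6667, against 5448 in MA-2x (1.22-fold, 1.18 to 1.27). zma-miR2275c-5p_2ss14CA15TC, which carries the name of its maize relative, had 2458 and 3746. zma-miR2275b-5p_1ss12CG has the same sequence and had 2458 and 3745, so these reads were listed under both names. osa-miR2275a_1ss15AG stood at 20.4 in SCP-2x and 77.4 in MA-2x, 3.79-fold lower (2.36 to 6.30), under all 4 scalings. Summed over members, miR2275 held 16.2% of the listed reads in SCP-2x and 13.8% in MA-2x, or 13.0% and 10.2% with identical sequences counted once.

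These families were also set against the stage labels, since small RNA tables hold no protein-coding marker of an anther cell type. The summed miR2118 members stood at 33274, 13794 and 4642 in PMA-2x, MA-2x and SCP-2x, highest in the pre-meiotic library as the label has it. The summed members of miR2275, the family known for the meiotic phasiRNAs, stood at 19286, 14685 and 12524 and did not peak in the library labelled meiosis. With identical sequences counted once they stood at 14705, 10933 and 10065. This sum mixes both arms, and its largest part, the 5′ product osa-miR2275c_R-2, stood at 5198, 5448 and 6667. It therefore cannot check the meiosis label.

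The arms of miR166 hairpins differed in the comparison. The 3′ products restrain HD-ZIP III factors, which set organ polarity. None of the 8 products of the 3′ arm or of an unnamed arm was called, and osa-miR166a-3p, the most abundant miRNA of both libraries, stood at 8833 in SCP-2x and 8089 in MA-2x. Summed over the 7 tested members with its seed, the values were 11692 and 11691. These members come from miR165 and miR166 and hold 6 distinct sequences. Of the 8 products of the 5′ arm, 5 were called lower (62.5%) and none higher, against 37.2% and 8.17% of all tested. Under the other scalings 4, 3 and 2 of them were called lower. osa-miR166b-5p stood at 482 and 2403, 4.98-fold lower, and osa-miR166l-5p at 26.7 and 98.1, 3.68-fold lower (2.43 to 5.73), both under all 4 scalings. Summed, the 5′ products held 1.18% of the listed reads in SCP-2x (1.11 to 1.26) and 3.22% in MA-2x (3.12 to 3.32).

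miR171, whose 3′ products restrain GRAS factors of the SCARECROW-LIKE group, had lower calls in both arms. Of 8 members 4 were called lower (50%) and none higher, against 37.2% and 8.17% of all tested. Of these 4, 3 stayed lower under all 4 scalings, and all 3 are 5′ products. The family's median log2 ratio of -1.24 lay 0.57 below that of all miRNAs, but by summed values the family lay 0.11 above it. osa-MIR171b-p5 had 10.7 in SCP-2x and 92.5 in MA-2x, 8.67-fold lower (4.75 to 17.4), the widest fall among miRNAs reaching 50. osa-miR171e-5p had 7.996 and 43.4, 5.43-fold lower (2.63 to 12.6), and osa-miR171i-5p had 70.2 and 279, 3.98-fold lower (3.10 to 5.17). The abundant 3′ product osa-MIR171i-p3 stood at 4987 and 7089, 1.42-fold lower (1.37 to 1.47), and was not called. The fourth lower call was a 3′ product, osa-MIR171a-p3, at 4.44 and 16.04, and rests on few reads. The 5′ product osa-miR171c-5p was not called at 46.2 and 33.0, so that the arms did not divide the family. In MIR171b the more abundant arm differed: the 5′ arm led in MA-2x, and the 3′ arm osa-miR171b, with 24.4 in SCP-2x and 37.7 in MA-2x, led in SCP-2x.

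Both arms were listed for 79 hairpins and tested for 72. Both were called lower in 25 and both higher in 2, MIR164d and MIR169b. In no hairpin were the arms called in opposite directions, 28 had 1 arm called and 17 none. The arms differed by more than 1 on the log2 scale in 17 hairpins, and the median difference was 0.58 in size. Taking the arm with more reads in PMA-2x as the main one, the minor arm had the lower ratio in 31 of 72, so that a low ratio of the minor arm was not general. Among pairs with both arms reaching 50, the widest gap was in MIR2275c, whose 5′ arm is given above and whose 3′ arm osa-MIR2275c-p3 had 24.4 and 75.0, 3.07-fold lower. MIR166a, MIR171i, MIR2118i, MIR166k and MIR529a followed, and the main arm had the higher ratio in each of these pairs but MIR2118i. In MIR166a the 5′ arm made up 0.560% of the pair in SCP-2x and 1.85% in MA-2x.

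**Figure D3:**
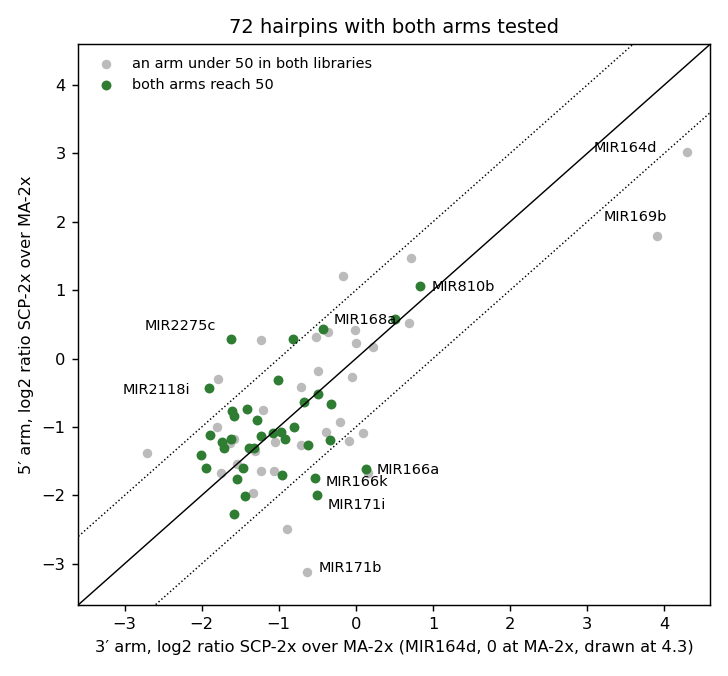
Log2 ratio of SCP-2x over MA-2x of the 5′ arm (vertical) against the 3′ arm (horizontal) of the 72 hairpins with both arms tested. The solid line marks equal ratios and the dotted lines a gap of 1. MIR166a, MIR166k, MIR171i and MIR171b lie below the line and MIR2275c and MIR2118i above it, and osa-MIR164d-p3 is drawn at 4.3 because it was listed at 0 in MA-2x.

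GAMYB factors, which the tapetum and microspores need, are the targets of miR159, and TCP factors those of miR319. Of 4 members tested 2 were called lower as deposited (50%, against 37.2% of all tested) and none under the other scalings. They were osa-miR159f_R-1, with 196 in SCP-2x and 420 in MA-2x, and osa-MIR159a-p5, with 10.7 and 25.5. osa-miR159a.1 had 690 and 1127 and was not called. The copper and lignin list (miR397, miR408 and miR528, with laccases and other copper proteins among their targets) had 2 of 5 called lower. This 40% is near the 37.2% of all tested. osa-miR408-3p had 53.3 and 135, 2.53-fold lower (1.86 to 3.48), and osa-miR408-5p had 2.67 and 10.4, 3.90-fold lower (1.03 to 21.7), with the 5′ arm lower under all 4 scalings. The list's median of -0.72 lay 0.04 below that of all miRNAs, and above it when only summed values were used.

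miRNAs that act on the small RNA pathway itself had no call among 6, against 45.4% of all tested called. osa-miR168a-5p, which restrains ARGONAUTE1, stood at 2327 in SCP-2x and 1732 in MA-2x (1.34-fold, 1.27 to 1.43), and osa-miR162b, which restrains DICER-LIKE1, at 794 and 1140. osa-miR1425-5p, which targets pentatricopeptide repeat genes, had 1359 and 1684. In the sulfate and phosphate list 1 of 3 was called lower, against 37.2% of all tested. It was osa-miR395b_L-1, at 7.39 and 20.5, and osa-miR827 had 15.99 and 24.5. Of 12 transposon-derived or long miRNAs 1 was called higher, osa-miR812v_1ss4GA at 11.5 and 5.19, and 2 lower, osa-miR1862a at 3.55 and 10.4 and osa-miR1874-3p at 21.3 and 54.7. These calls are 8.33% and 16.7% of the list, against 8.17% and 37.2% of all tested. No member of miR444, which targets MADS-box genes, was listed.

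**Figure D4:**
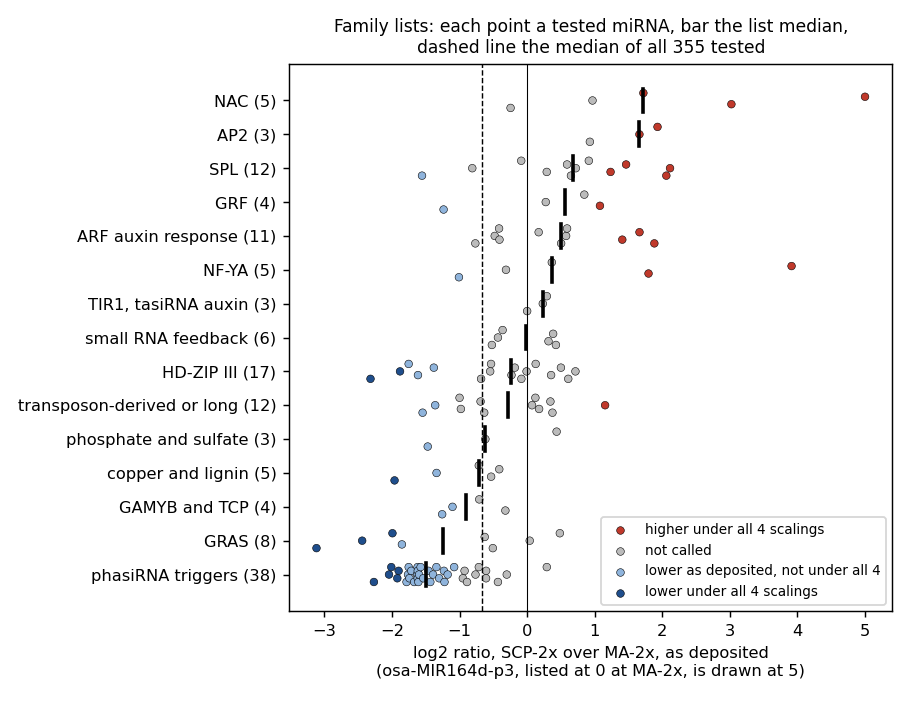
Log2 ratio of SCP-2x over MA-2x for each tested member of the family lists with at least 3 tested members, one row a list with its number of members, ordered by median. Bars mark list medians and the dashed line the median of all 355 tested, -0.67. Of the lists drawn, miR164 (NAC) and miR172 (AP2) lie at the top with medians of 1.72 and 1.66, and the phasiRNA triggers at the bottom with -1.50.

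Among the 15 miRNAs that reached 50 and were lower under all 4 scalings, 6 belong to families with no list here. osa-miR5511 had 19.5 in SCP-2x and 127 in MA-2x, 6.52-fold lower (4.13 to 10.7). osa-miR5516a had 128 and 560, 4.38-fold lower. osa-MIR5798-p3, the most abundant of the 6 in PMA-2x, had 319 and 1279, 4.01-fold lower (3.57 to 4.52). osa-miR5820 had 115 and 444, 3.85-fold lower (3.16 to 4.71), and osa-MIR5519-p3 had 86.2 and 320, 3.71-fold lower (2.95 to 4.70). The predicted PC-5p-11519_1490 had 16.9 and 66.5, 3.94-fold lower. For 4 of the 6 the opposite arm was listed, and each was called lower as deposited: osa-MIR5511-p5 had 15.99 and 41.5, osa-MIR5798-p5 had 84.4 and 224, osa-MIR5820-p5 had 101 and 307, and osa-miR5519 had 179 and 391.

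By length, the 24 nt class had a higher median than the 21 nt and 22 nt classes, which hold most of the other miRNAs. Of 100 listed 78 were tested, 8 called higher (10.3%) and 9 lower (11.5%), against 8.17% and 37.2% of all tested. Their median log2 ratio of -0.13 lay 0.55 above that of all miRNAs. It lies above 0 under each other scaling. Of 210 tested 21 nt miRNAs 14 were called higher and 94 lower, with a median of -0.83 that turns above 0 with clean reads. Of 45 of 22 nt, 2 were higher and 24 lower (median -1.18), and 21 of these 45 belong to miR2118. The small classes of 20 nt (12 tested, median 0.25) and 23 nt (3 tested, median 1.01) lay above the 24 nt class.

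Within the 24 nt class the 53 with a 5′ A, the first base usual for ARGONAUTE4-bound small RNAs, had a median of 0.15, with 6 called higher and 4 lower. The 17 with a 5′ G had a median of -0.74. The most abundant 24 nt miRNA, osa-miR5792_1ss22AC, begins with G and fell just short of a call at 1738 in SCP-2x and 3461 in MA-2x (1.99-fold lower, 1.88 to 2.11). Its weight set the class sum: 24 nt miRNAs held 5.26% of the listed reads in SCP-2x (5.12 to 5.41) and 5.95% in MA-2x (5.82 to 6.09). The called 24 nt miRNAs were scarce, and osa-miR1875 was the most abundant of those higher, with 39.1 and 10.4 (3.77-fold, 1.91 to 8.09). By first base over all lengths, the medians were -0.17 for A, -0.69 for G, -0.82 for T and -1.09 for C.

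By origin, known rice miRNAs had 14 of 146 called higher and 54 lower (9.59% and 37.0%, median -0.70), near the 8.17% and 37.2% of all tested. Products of the other arm of known hairpins had 6 of 121 higher and 57 lower (4.96% and 47.1%, median -0.95). Of 70 predicted hairpins 6 were higher and 21 lower (8.57% and 30%, median -0.58), also near the shares of all tested. Matches to miRNAs of other species had 3 of 18 higher and none lower (median 0.56). Of these higher calls bdi-miR156b-5p_R+1 and sbi-miR156a_R+1 are one sequence, and the class lists further sequences under 2 names.

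Against the earlier stage, PMA-2x, all 29 miRNAs called higher in SCP-2x were also above their PMA-2x value. SCP-2x was the highest of the 3 stages for 81 of the 108 tested that were higher in value. Of the 132 called lower, SCP-2x was the lowest stage for 127, against 227 of the 247 lower in value, and 39 had their highest value in MA-2x. A call already sets the order of SCP-2x and MA-2x, so only the place of PMA-2x could vary in these counts. Successive ratios share the MA-2x library. Past 2-fold at both steps, 21 miRNAs fell and 3 rose: osa-miR172a, with 17.5, 45.8 and 145 in PMA-2x, MA-2x and SCP-2x, osa-MIR167j-p3, with 6.73, 22.6 and 83.5, and osa-MIR2863b-p5, with 1.35, 10.4 and 23.99. osa-miR1432-5p_R+1 differed from them in that its low level held from PMA-2x to MA-2x. Among the lower ones, osa-miR166b-5p (2489, 2403 and 482) and osa-miR5511 (132, 127 and 19.5) likewise kept their level up to MA-2x, whereas osa-miR2118d (7447, 2873 and 964) was lower at each stage.

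**Figure D5:**
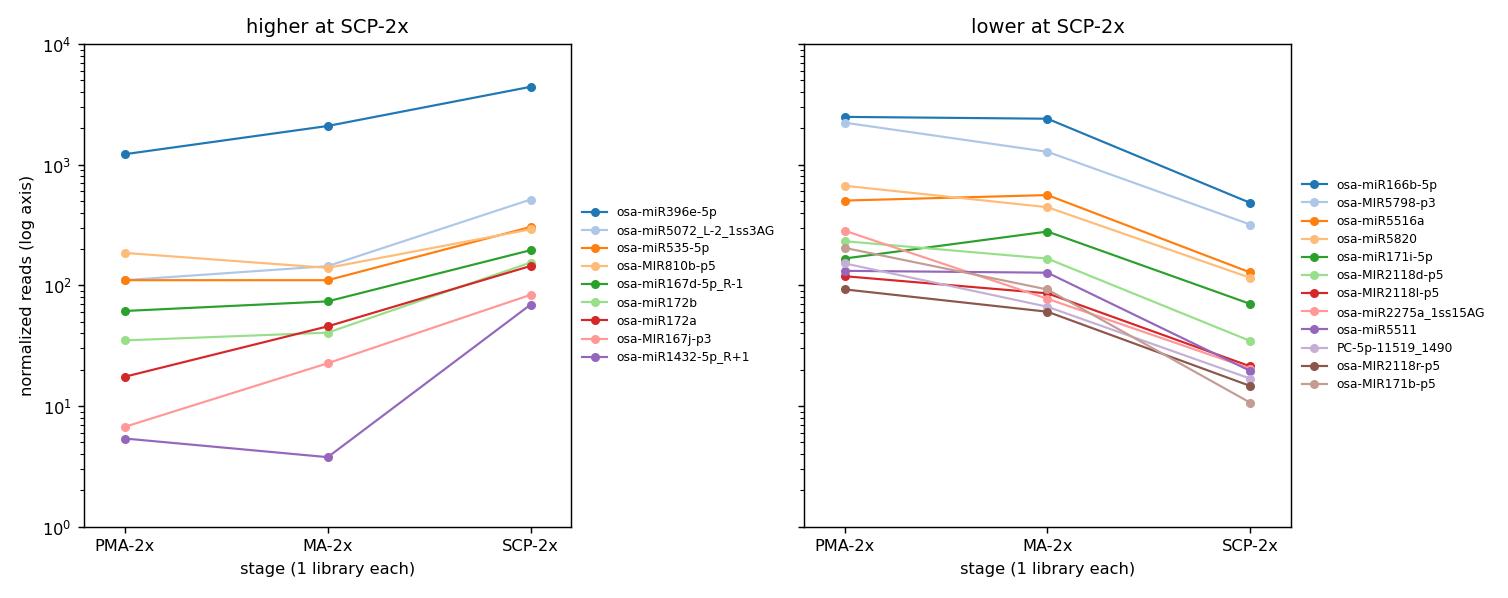
Normalized reads (log axis) in the PMA-2x, MA-2x and SCP-2x libraries for the called miRNAs with the largest folds and at least 50 reads in the higher library, 9 higher (left) and 12 lower (right) at SCP-2x. Each point is 1 library. On the right osa-miR166b-5p, osa-miR5511, osa-miR5516a and osa-miR171i-5p bend down only after MA-2x, and osa-miR1432-5p_R+1 on the left stays below 6 until SCP-2x.

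The same step was sampled in 2 other libraries, SCP-4x and MA-4x, of the tetraploid. There 36 of 390 tested were called higher (9.23%) and 83 lower (21.3%). Among the 306 miRNAs tested in both ploidies, 113 were called lower in the diploid and 55 of them also in the tetraploid, which is 48.7% of the diploid and 69.6% of the tetraploid calls. Of 20 called higher in the diploid 7 were higher in the tetraploid, 35% of either list, and none was lower. Over all 306, 6.54% were called higher and 25.8% lower in the tetraploid. Called higher in both were osa-miR172a, at 89.1 in SCP-4x and 29.0 in MA-4x, osa-miR164d, at 48.4 and 4.15, and osa-MIR167j-p3, at 58.2 and 20.8. Among the lower ones osa-miR166b-5p had 476 and 1989, and osa-MIR171b-p5 17.5 and 88.8. osa-miR396e-5p had 2280 and 1412 and osa-miR535-5p 172 and 95.1, and neither was called there. Whether any ratio differs between the ploidies was not tested, with 1 library a side.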

How the data were processed

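Small RNA libraries of anthers (TruSeq small RNA kit, HiSeq2500) were filtered by the authors with the Illumina pipeline and ACGT101-miR, aligned to miRBase precursors and the genome by BLAST with 1 mismatch allowed, and candidate hairpins were folded with RNAfold. A genome build was not given in the sources used here. The deposited signal is the normalized read number that the authors derived with 1 factor for each library, fitted by regression over the sequences all libraries shared. The diploid table lists miRNAs over 10 in at least 1 of 3 stages.

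The value of 1 read was taken as the largest step that made most low values whole, at a tolerance of 0.01 reads. By this step 75.6% of SCP-2x and 74.1% of MA-2x values were whole. A miRNA entered the comparison if one of its values passed 10 and was called past a 2-fold difference, the limits of the study without its read test, and a listed 0 was read as 0.01. Counting intervals (95%, exact binomial, or Wilson for shares of listed reads) cover counting error only. Calling was tested on simulated data. Shares of a family take its summed reads, rounded. Alternatives changed the scaling, threshold, fold, pseudocount, Fisher test, rows and members. No set test and no p-value across miRNAs was used. Python 3.11.15, pandas 2.3.3, scipy 1.17.1 and matplotlib 3.10.9 were used.

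Family lists follow the number in the miRNA name and take products of both arms, and targets are named for the family, whichever arm a member comes from. Named miRNAs are the 12 largest called folds in each direction among miRNAs that reach 50, the 8 most abundant of each library, in each list the most abundant member and the 2 largest called folds, those called under all 4 scalings with at least 50, the 6 hairpins whose arms differ most, and the 5 largest values listed against 0. Other members of a list are named as its context, and were chosen after their values were seen. The members, lists, tests and this rule were chosen with earlier results of these data known.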

Additional observations from a re-analysis of the deposited data

Results flagged for a closer look

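osa-miR1436_L+3_2ss5CT16GA, a 24 nt miRNA, was called in opposite directions in the ploidies, the 1 such case among the 306 miRNAs tested in both. In the diploid it stood at 5.33 in SCP-2x and 11.3 in MA-2x, a log2 ratio of -1.09, and its counting interval of 0.74 to 6.90-fold lower includes 1. In the tetraploid it stood at 22.3 in SCP-4x and 10.4 in MA-4x, a log2 ratio of 1.10. With 1 library a side the difference between the ploidies was not tested, and the diploid call was lost under the 3 other scalings.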

How the results depend on the processing

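Of the 355 tested miRNAs 29 were called higher and 132 lower in SCP-2x, with a median log2 ratio of -0.67. Higher calls numbered 54, 76 and 97 and lower calls 66, 41 and 26 when scaled to equal table sums, to the median ratio or to clean reads, with medians of -0.21, 0.00 and 0.20. Higher calls numbered 13 over a threshold of 20 (median -0.87) and 9 over 50 (median -0.96, 82 lower). They were 9 with a fold over 4 (15 lower), 50 with a fold over 1.5, 14 with a pseudocount of 10 (80 lower, median -0.47) and 17 with whole reads only. The other counts stayed within 1.5 times: no threshold (33 and 147), a pseudocount of 1 (28 and 126), identical sequences once (28 and 129) and a Fisher test, which took rounded normalized values on the table sums (28 and 95). No called direction could turn under these settings. The largest scaling shift was 1.83-fold, under the 2-fold that every call passes, and a pseudocount keeps the sign of a log2 ratio. The distances of the 24 nt and 21 nt medians from that of all miRNAs moved within their spread. Of 50 list values under other settings 1 moved beyond its range, the phasiRNA triggers by summed values, at -0.06 from the median of all miRNAs against -0.83 by member. For short lists the range was that of the members themselves, so medians over part of them could not leave it. Lists of 1 member could not move. By summed values 2 lists turned to the other side of the median of all miRNAs, and with members over 50 1 did. Within its range the miR171 (GRAS) list went from -0.57 to 0.11 by summed values, and the miR169 (NF-YA) list from 1.04 to 0.05. Counting identical sequences once within the lists was chosen after seeing the data. No paired analysis was possible because each stage has 1 library and the labels give no shared replicate numbers. At this depth a value of 10 stands for about 11 reads, so that calls near the limit carry wide intervals.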

Other observations

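Some of the higher miRNAs did not map to the rice genome. The deposited table marks 18 of the 402 miRNAs as matching a mature miRNA while neither the reads nor the precursor mapped to the genome, and 15 of these were tested. Of these 15, 2 were called higher (13.3%) and 1 lower (6.67%), against 8.17% and 37.2% of all tested. By value 14 of the 15 lay above the median of all miRNAs. osa-miR5072_L-2_1ss3AG, the most abundant of the 18 that was called, stood at 514 in SCP-2x and 144 in MA-2x, 3.56-fold higher (2.98 to 4.29). ppt-miR894_R+1, named for its moss relative, was among the most abundant miRNAs of both libraries at 4555 and 3097 (1.47-fold, 1.41 to 1.54), and bdi-miR5054_L+2 had 211 and 108 (1.96-fold, 1.56 to 2.47). These 3 and rgl-miR5139_L+3 (145 and 134) end in CCA, the bases that mature tRNAs carry at their 3′ end, and all 4 were higher in value in SCP-2x. Of all 402 sequences 9 end in CCA, these 4 included. Of the 9, 5 were higher in value in SCP-2x, 2 were called higher and 2 lower. The origin of these reads was not tested.

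Among values listed against 0, PC-3p-760682_19 had 17.5 in PMA-2x and 2.83 in MA-2x and was listed at 0 in SCP-2x, and osa-MIR1859-p5 had 12.1 in PMA-2x and 4.72 in MA-2x and was listed at 0 in SCP-2x. Neither reached 10 in the 2 libraries compared.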
